A study of Mus musculus with 40 samples.

Results

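The colonic epithelium of uncolonized mice was compared between 2 days of the study, day 48 with 4 libraries and day 14 with 3. These libraries were taken by their titles, which give tissue, arm, a number and day. They are 7 of the 20 epithelial libraries and of the 40 in the series. All 45792 mouse gene rows were considered, of which 10119 passed the filter on low counts and were tested. The whole study followed mice inoculated with purified Tritrichomonas musculis (T.mu), a flagellate that lives in the rodent intestine, beside controls without it. Epithelial cells and total colon were taken at days 3, 14 and 48. In both groups here the inoculum is given as none, and the days are still counted from inoculation. The labels give no strain, age or sex, so whether the mice of day 48 were older than those of day 14 is not stated. The litter is taken here from the number in the title, which follows C-L in controls and TM in T.mu mice. By that number, litters 1, 2 and 3 were sampled on each day and litter 4 on day 48. The design text speaks of different mice at each time, and each library of a day carries its own litter number. Each day also carries a single i5 index, the second of the barcodes that mark a library, and both arms share it: day and index cannot be told apart in epithelium.

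The colonic epithelium is renewed within days from crypt stem cells, whose daughters become absorptive colonocytes, mucus-secreting goblet cells, hormone-secreting enteroendocrine cells and tuft cells. Colonocytes take up salt, water and butyrate and secrete antimicrobial proteins toward the lumen. Immediate early genes are transcribed within minutes of a stimulus, in the living animal or during the handling of tissue, and many of them encode transcription factors or brakes on MAP kinase signalling.

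Libraries of the 2 days differed in several measures before any gene was considered. Total mouse counts were 1190410 to 1765601 at day 48 and 860699 to 1124067 at day 14. Ribosomal RNA genes and Lars2 took 40.19 ± 0.905% of counts at day 48 and 34.41 ± 0.569% at day 14 (SD, n = 4 and 3). With each library thinned to 860699 counts, 18449 to 21865 genes had a count at day 48 and 15305 to 16237 at day 14. The slope of log2 level on the GC content of transcripts was -0.34 ± 0.135 per 10 GC points at day 48 and 0.09 ± 0.112 at day 14. None of these 4 measures overlapped between the days. The parts of the ribosomal RNA and Lars2 share did not all run the same way. The mitochondrial mt-Rnr2 took 23.07 ± 2.48% at day 48 and 18.82 ± 1.42% at day 14, without overlap. Nuclear ribosomal RNA took 11.92 ± 1.86% and 9.163 ± 2.83%, with overlap. Lars2 was lower at day 48, at 2.492 ± 0.469% against 3.959 ± 1.13%, with overlap. Total counts, the ribosomal RNA share and the slope each had an exact two-sided permutation p of 0.0571 (0.0856 adjusted over 15 measures), which is the smallest that 35 splits of 4 against 3 can give.

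The libraries were epithelial by their markers. Epcam, the epithelial adhesion molecule, averaged 936.4 CPM at day 48 and 915.2 CPM at day 14, where CPM is the TMM-scaled level that corrects counts for library size. Summed levels, here and below, are instead CPM of all mouse counts without TMM scaling, and their overlap was not checked with it. On that scale Epcam was at 807 to 888 CPM at day 48 and 882 to 936 CPM at day 14. The 14 epithelial identity genes together summed to 7270 to 9240 CPM at day 48 and 9680 to 13100 CPM at day 14, without overlap. None of them passed in the fit of 20 libraries described next, and Krt19 and Vil1, a keratin and a brush border protein, were lower in the fit of 7. Cd8a and C1qa, markers of cytotoxic T cells and macrophages, had no count in any of the 7 libraries, and Cd3g, a T cell receptor subunit, had one in a single day 14 library. Other lymphoid and macrophage markers were present. Ptprc had 7 to 41 counts in each of the 7 libraries, and Lyz2 had 2 to 6. Summed levels of the 21 macrophage and dendritic cell markers were 186 to 238 CPM at day 48 and 210 to 296 CPM at day 14. Those of the 25 fibroblast and matrix markers were 186 to 209 CPM at day 48 and 162 to 239 CPM at day 14. The 26 T, NK and innate lymphoid cell markers summed to 46.5 to 55.5 CPM at day 48 and 27.9 to 36.5 CPM at day 14. The 17 B and plasma cell markers summed to 28.9 to 32.2 CPM at day 48 and 7.12 to 17.8 CPM at day 14. The 9 red blood cell markers summed to 22.7 to 38.4 CPM at day 48 and 56.9 to 71.2 CPM at day 14. In bulk samples, fewer cells of a type and less RNA per cell cannot be told apart.

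Which genes differed between the days? By edgeR's quasi-likelihood test on all 20 epithelial libraries, 3 of 10119 genes (0.0296%) passed an adjusted p of 0.05: Ttn rose (0.00988% of genes were higher), and Dusp1 and Tppp3 fell (0.0198%). At an adjusted p under 0.1 there were 37 genes (0.366%), 22 higher and 15 lower, and at an unadjusted p under 0.05 there were 1167 (11.5%), 627 higher (6.2%) and 540 lower (5.34%). The CPM of the days did not overlap in 829 genes with day 48 above (8.19%) and 753 with day 48 below (7.44%).

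Dusp1, a phosphatase that switches off MAP kinases and is induced by stress and glucocorticoids, lies on chromosome 17 (26505590 to 26562128, GRCm38, minus strand). It was at 78.79, 68.19, 103.37 and 72.02 CPM at day 48, against 216.15, 192.1 and 199.79 CPM at day 14. The highest day 48 library was below the lowest day 14 library. Dusp1 was 2.5-fold lower at day 48 (log2 fold change -1.32 ± 0.27 SE, edgeR adjusted p = 0.0304).

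Tppp3, a tubulin polymerization-promoting protein, lies on chromosome 8 (105467493 to 105471526, minus strand). It had 55.42, 34.54, 31.25 and 28.43 CPM at day 48, against 96.6, 112.22 and 164.17 CPM at day 14. The days did not overlap, and Tppp3 was 3.31-fold lower at day 48 (log2 fold change -1.73 ± 0.34, edgeR adjusted p = 0.0352). Ttn, the giant sarcomere protein titin, lies on chromosome 2 (76703980 to 76982547, minus strand). It had 93.48, 47.82, 67.91 and 115.61 CPM at day 48, against 15.7, 21.87 and 31.27 CPM at day 14. Every day 48 library was above every day 14 library, and Ttn was 3.47-fold higher (log2 fold change 1.79 ± 0.35, edgeR adjusted p = 0.0304). The longest annotated Ttn transcript has 106824 bases. Smooth muscle markers summed to 57.4 to 108 CPM at day 48 and 65.6 to 70.3 CPM at day 14. Among them, on that scale, Acta2 was at 0, 0, 1.13 and 8.4 CPM at day 48 and 0, 3.75 and 5.34 CPM at day 14. Whether smooth muscle contributed to the Ttn counts was not tested.

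The calls depended on single libraries. Without day 48 replicate 4 or day 14 replicate 1 no gene passed in edgeR (787 and 922 at an unadjusted p under 0.05). Of the calls, 1 was left without day 48 replicate 1 (Tppp3), without day 48 replicate 2 (Ttn) and without day 14 replicate 3 (Ttn). A gene outside the 3, Gm43197, passed without day 14 replicate 2, and 3 passed without day 48 replicate 3, Ttn and Dusp1 among them. With the litter as a block, Dusp1 (adjusted p = 0.0365) and Tppp3 (0.0297) passed and Ttn did not (0.0606). With a correction for GC content and length in that fit, 3 genes passed (0.0296%; 0.00988% higher and 0.0198% lower). Ttn was then at log2 0.35 (adjusted p = 0.891), Dusp1 at -1.05 (0.118) and Tppp3 at -1.39 (0.0343).

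**Figure D1:**
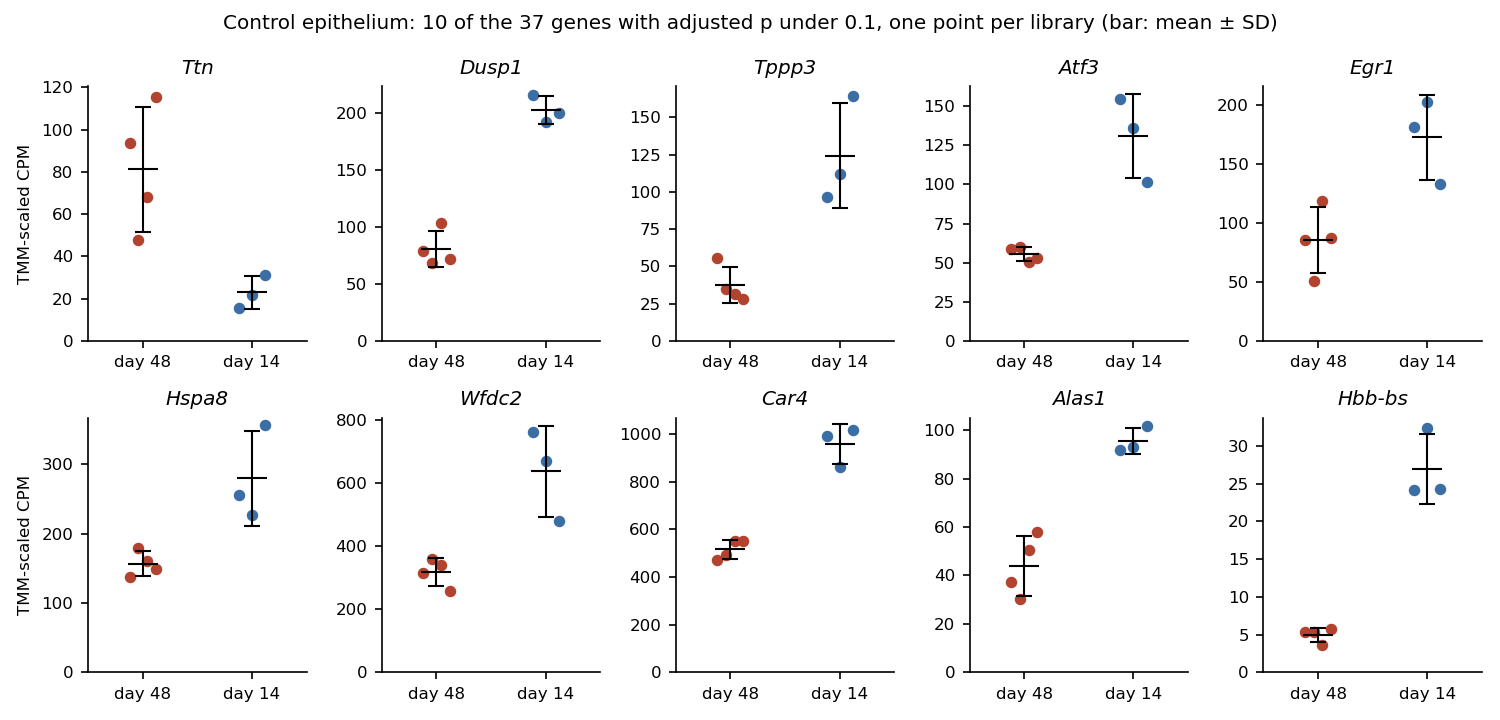
TMM-scaled CPM of 10 genes in each control epithelial library, with day 48 left of day 14. Points are libraries (n = 4 and 3) and bars show the mean ± SD. The days do not overlap in any of the 10 panels, with Ttn higher and the other 9 genes lower at day 48. Only Ttn, Dusp1 and Tppp3 passed an adjusted p of 0.05.

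The immediate early genes next to Dusp1 lay lower at day 48 without passing. Atf3, a stress-induced transcription factor, had 58.76, 60.22, 50.48 and 53.07 CPM at day 48, against 154.56, 135.99 and 101.63 CPM at day 14. The days did not overlap (log2 fold change -1.23 ± 0.27, edgeR adjusted p = 0.0505; 0.0365 with the litter block). Egr1, a zinc finger transcription factor, had 85.46, 50.48, 118.39 and 87.18 CPM at day 48, against 181.13, 202.57 and 132.9 CPM at day 14 (log2 -1.0 ± 0.26, adjusted p = 0.0973). Hspa8, the constitutive heat shock cognate chaperone, averaged 156.6 ± 18 CPM at day 48 and 279.4 ± 67.9 CPM at day 14 (log2 -0.84, adjusted p = 0.0973). Fos, the AP-1 subunit, averaged 379.8 ± 31.5 CPM at day 48 and 554.8 ± 77 CPM at day 14 (log2 -0.55, adjusted p = 0.288).

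Not every member of that list was lower. Of the 24 immediate early and heat shock genes tested, Dusp1 passed, and 6 (25.0%, beside 7.44% of all genes) did not overlap between the days, all with day 48 below. The median log2 fold change was -0.41, beside 0.008 over all genes. Jun (log2 -0.02), its partner Junb (0.21) and the mitochondrial chaperone gene Hspd1 (0.35) lay near 0 or above it, with adjusted p of 0.986, 0.86 and 0.747. In the fit of the 7 libraries alone, 5 members passed, all lower (2.0% of all genes): Dusp1, Atf3, Egr1, Hspa8 and Fos (adjusted p from 2.02e-06 to 0.0255). With GC content and length corrected in that fit, 5 passed (0.67% of all genes were lower), with Klf6, a zinc finger factor (log2 -0.67, adjusted p = 0.0275), in the place of Fos. The list summed to 1400 to 1690 CPM at day 48 and 2320 to 2390 CPM at day 14. The part of tissue handling in these values was not tested.

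**Figure D2:**
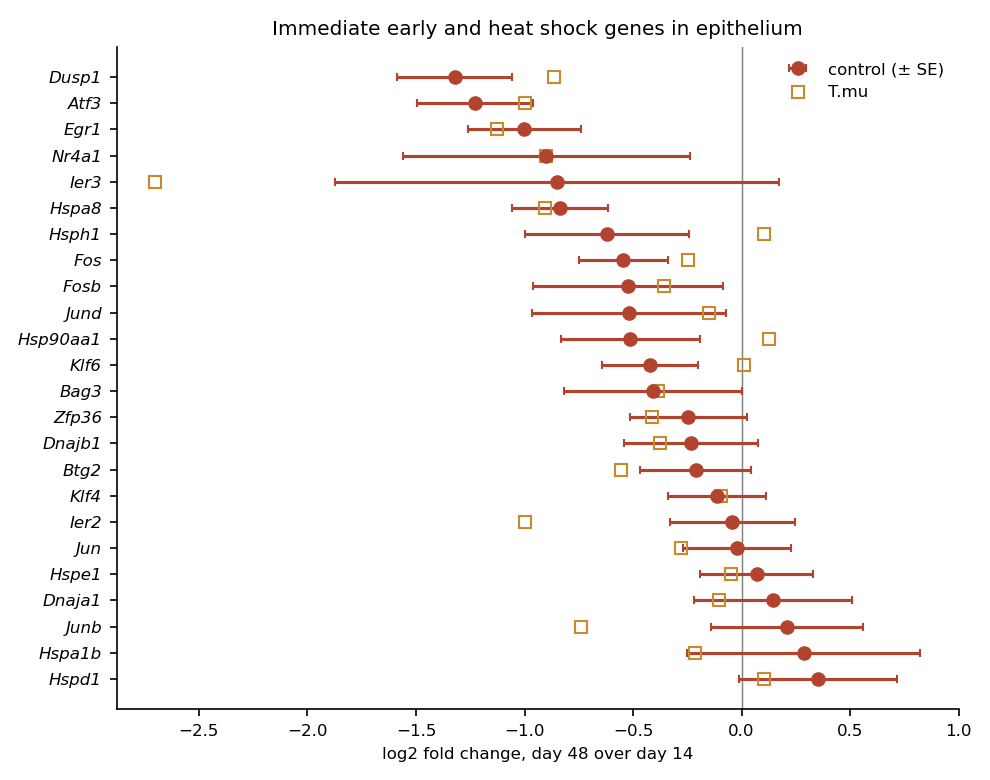
Log2 fold change of day 48 over day 14 for the 24 tested immediate early and heat shock genes. Filled points with bars are control epithelium (± SE of the fit) and open squares are T.mu epithelium, which shares no library with the controls. Dusp1, Atf3 and Egr1 lie lowest among the controls, at -1.32, -1.23 and -1.0.

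The promoters of Dusp1 and Atf3 are shown because both genes are textbook targets of cAMP and stress signalling through the cAMP response element. The letters TGACGT and their reverse complement ACGTCA are in capitals, and the full palindrome is TGACGTCA. Each window runs from 250 bases before to 50 bases after the start site, from RefSeq (GRCm38.p6), at chr17:26508423-26508722 and chr1:191183284-191183583, both on the minus strand.
Dusp1: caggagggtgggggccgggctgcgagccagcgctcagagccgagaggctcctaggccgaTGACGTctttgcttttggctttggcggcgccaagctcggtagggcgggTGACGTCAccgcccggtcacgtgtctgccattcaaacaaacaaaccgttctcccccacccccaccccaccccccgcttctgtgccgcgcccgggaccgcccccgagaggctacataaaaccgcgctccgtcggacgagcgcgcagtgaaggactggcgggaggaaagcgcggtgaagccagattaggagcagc
Atf3: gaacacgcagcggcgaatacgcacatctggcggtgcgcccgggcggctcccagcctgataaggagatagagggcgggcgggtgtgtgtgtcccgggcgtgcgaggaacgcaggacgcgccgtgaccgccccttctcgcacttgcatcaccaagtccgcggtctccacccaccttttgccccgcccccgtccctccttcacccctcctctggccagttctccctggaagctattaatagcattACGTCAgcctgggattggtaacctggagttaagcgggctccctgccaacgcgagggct
The Dusp1 window held 1 full palindrome and a further TGACGT, and the Atf3 window held 1 ACGTCA. On either strand, the 6-letter run was in 7.51% and the full palindrome in 1.79% of 32851 promoter windows of the same length. These matches describe the letters and do not show binding.

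Of 29 surface colonocyte genes tested, none passed, 9 had day 48 below without overlap (31.0%, beside 7.44% of all genes) and 1 had day 48 above. In the fit of the 7 libraries alone 4 were lower and 2 higher (2.0% of all genes each way), and with GC content and length corrected 2 were lower and 1 higher (0.67% and 0.541%). The list's median log2 fold change was -0.17 in the 20-library fit, -0.008 with correction and block, and 0.063 in T.mu epithelium. Car4, a membrane-anchored carbonic anhydrase of colonocytes, had 472.05, 492.4, 549.88 and 549.61 CPM at day 48, against 993.79, 863.52 and 1017.17 CPM at day 14. The days did not overlap (log2 -0.89 ± 0.22, edgeR adjusted p = 0.07). Wfdc2, a secreted protease inhibitor of mucosal surfaces, had 315.81, 359.56, 340.75 and 259.64 CPM at day 48, against 764.36, 669.51 and 479.49 CPM at day 14 (log2 -1.0 ± 0.23, adjusted p = 0.0634). Atp12a, the proton and potassium pump of the colon, averaged 82.87 ± 40.4 CPM at day 48 and 175.7 ± 14.2 CPM at day 14 (log2 -1.07, adjusted p = 0.0731). Day 48 replicate 3, at 141.83 CPM, was the highest Atp12a value of that day and still below the lowest of day 14. Cldn2, a pore-forming tight junction claudin, averaged 82.35 ± 7.8 CPM at day 48 and 149.7 ± 7.17 CPM at day 14 (log2 -0.86, adjusted p = 0.136). Of these 4 genes, Car4 is on the colonocyte list, and the others are on the antimicrobial, transport and junction lists. None of the 4 passed in the 20-library fit, and all 4 passed in the fit of the 7 libraries alone, also with GC content and length corrected (adjusted p from 0.00952 to 0.0167).

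Of the other lower genes with adjusted p under 0.1, 3 are given as examples. Alas1, the first enzyme of haem synthesis, averaged 43.95 ± 12.5 CPM at day 48 and 95.53 ± 5.33 CPM at day 14 (log2 -1.12, adjusted p = 0.0719). Atox1, a copper chaperone, averaged 140.4 ± 11.3 CPM at day 48 and 248.2 ± 21.6 CPM at day 14 (log2 -0.82, adjusted p = 0.0973). Nubp2, of cytosolic iron-sulphur cluster assembly, averaged 16.95 ± 6.54 CPM at day 48 and 43.71 ± 5.62 CPM at day 14 (log2 -1.34, adjusted p = 0.0655).

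Hbb-bs, an adult beta globin gene, had 5.34, 5.31, 3.61 and 5.69 CPM at day 48, against 24.15, 32.33 and 24.32 CPM at day 14. All day 48 libraries were lower (log2 -2.43 ± 0.52, edgeR adjusted p = 0.0505). The 5 red blood cell genes tested, Hbb-bs among them, had a median of log2 -1.75, and all 5 were negative. Only 1 of them, Hbb-bs, did not overlap between the days. On that list 2 genes had enough counts to be tested in the fit of the 7 libraries. How much blood each sample held was not tested.

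Of the 22 higher genes with adjusted p under 0.1, 5 are given as examples, none of which passed. Mgat4c, an N-acetylglucosaminyltransferase, had 403.95, 433.95, 295.07 and 454.85 CPM at day 48, against 169.05, 228.24 and 200.65 CPM at day 14 (log2 0.99 ± 0.23, edgeR adjusted p = 0.0655). With the litter block and the correction for GC content and length it was at log2 0.40 (adjusted p = 0.702), and its transcript has a GC content of 35.3%. Atp6ap2, an accessory subunit of the vacuolar proton pump, averaged 209.6 ± 23.4 CPM at day 48 and 104.6 ± 24.8 CPM at day 14 (log2 1.0, adjusted p = 0.0655). Npm1, nucleophosmin of the nucleolus, averaged 184.4 ± 16.2 CPM at day 48 and 96.32 ± 11.5 CPM at day 14 (log2 0.94, adjusted p = 0.0949). Slc25a46, a mitochondrial carrier family gene, averaged 48.22 ± 10.2 CPM at day 48 and 16.74 ± 4.04 CPM at day 14 (log2 1.5, adjusted p = 0.0655). Prss23, a secreted serine protease gene, averaged 48.51 ± 3.01 CPM at day 48 and 17.71 ± 5.39 CPM at day 14 (log2 1.43, adjusted p = 0.0973). In all 5 of these genes, each day 48 library was above each day 14 library.

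A further 5 of the 22, Pla2g4c, Agbl4, Arpp21, Zfp473 and A130071D04Rik, had no count in any day 14 library. Their 45 to 56 counts over the day 48 libraries lay 7.84-fold to 9.75-fold above a floor of 3 counts over the day 14 group. The floor covers counting error only. These genes were grouped because they had no day 14 count, so the floor sets no lower bound on their change. Of the 5, only Zfp473 passed the low-count filter in the fit of the 7 libraries alone. None passed in the 20-library fit (adjusted p 0.064 to 0.0936), and Pla2g4c passed with the litter block (0.0365). Higher genes had a median GC content of 42.0% and a median length of 4290 bases, and lower genes 53.5% and 2313 bases.

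Another 4 of the 22 higher genes, Gm10800, Gm10801, Gm10717 and Gm21738, are annotated as protein-coding gene models and share long runs of sequence. Gm10800 had 4624.35, 3306.02, 5386.44 and 5590.85 CPM at day 48, against 1383.82, 766.51 and 1462.78 CPM at day 14 (log2 1.97 ± 0.43, edgeR adjusted p = 0.0949). Gm21738 had 291.11, 195.72, 314.3 and 353.46 CPM at day 48, against 96.6, 51.35 and 73.83 CPM at day 14 (log2 1.97 ± 0.41, adjusted p = 0.0655). In both genes all day 48 libraries were above all day 14 libraries, and day 48 replicate 2 was the lowest of its day. Counts may be split between these copies, so each single value is uncertain. To show the shared sequence, 150 bases of 2 of the transcripts are given, positions 109 to 258, from the GENCODE M21 annotation (GRCm38). The genes lie at chr2:98666547-98667301 and chr14:19415857-19418930, both on the minus strand. Capitals mark bases inside 21-base runs found in all 4 models.
Gm10800: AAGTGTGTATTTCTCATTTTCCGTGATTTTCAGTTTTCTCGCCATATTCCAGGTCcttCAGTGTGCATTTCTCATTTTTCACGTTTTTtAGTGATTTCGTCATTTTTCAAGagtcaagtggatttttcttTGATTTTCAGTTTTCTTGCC
Gm21738: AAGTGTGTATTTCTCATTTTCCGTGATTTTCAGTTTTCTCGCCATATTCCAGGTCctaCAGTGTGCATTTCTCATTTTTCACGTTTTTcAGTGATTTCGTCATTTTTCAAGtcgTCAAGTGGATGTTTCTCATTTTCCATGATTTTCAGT
The 2 transcripts have GC contents of 35.9% and 35.2%, and 125 of the 465 distinct 21-base runs of Gm10800 (26.9%) were also in Gm21738. Gm21738 matched itself best when shifted by 234 bases (62.4% of bases identical), and Gm10717 also by 234 (64.9%). The best shift was 231 bases for Gm10801 (52.7%) and 225 for Gm10800 (56.3%). The letters resemble the mouse major satellite, the repeat of DNA around centromeres, but were not aligned to it. Summed over 13 gene models chosen by name, these 4 among them, the level was 6083 ± 1470 CPM at day 48 and 1682 ± 570 CPM at day 14, with no overlap. In T.mu epithelium the sums overlapped, at 6350, 10700, 2180 and 3070 CPM at day 48 and 2980, 2030 and 2110 CPM at day 14. This set was put together after these genes had been seen, and its permutation p, counted among the 15 measures, is not read as evidence.

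Odour and pheromone receptor genes, best known from the nose, showed the same order. The 1344 olfactory and vomeronasal receptor genes of the table summed to 1260, 663, 1050 and 1450 CPM at day 48, against 353, 326 and 396 CPM at day 14. The lowest day 48 library was above the highest day 14 library. In T.mu epithelium the sums were 1225 ± 470 CPM at day 48 and 428.1 ± 83.2 CPM at day 14, again without overlap. This sum, too, was added after long, AT-rich transcripts had been seen to lead the higher genes, and its p among the 15 measures is not read either. Whether genomic DNA or unspliced RNA contributed to these counts was not tested.

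**Figure D3:**
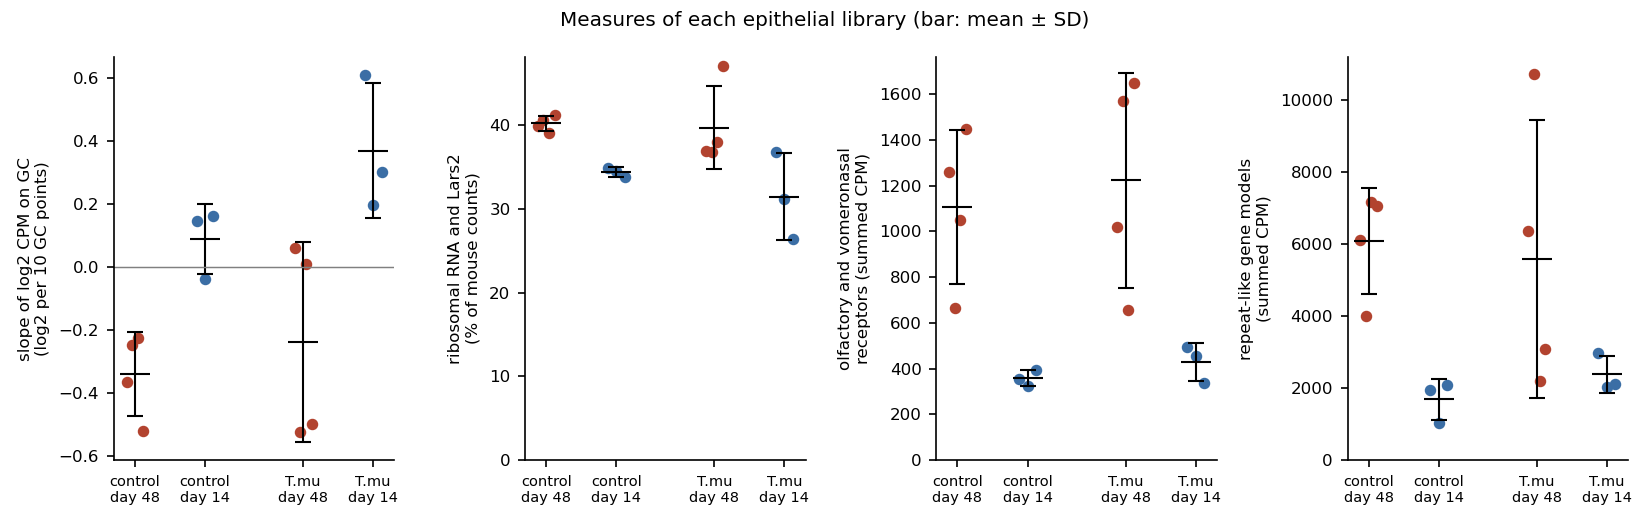
Library measures in control and T.mu epithelium, with day 48 left of day 14 in each arm. Points are libraries and bars show the mean ± SD. Summed levels are CPM without TMM scaling. The panels show the slope of log2 CPM on GC content, the ribosomal RNA and Lars2 share, the summed olfactory and vomeronasal receptor level and the summed level of 13 repeat-like gene models. In controls the days do not overlap in any panel, and in T.mu epithelium they overlap in the panel of repeat-like models.

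The difference between days went with base composition over the whole transcriptome. Across 10103 genes, which are not independent replicates, the log2 fold change had a Spearman correlation of -0.458 with GC content and 0.295 with transcript length. With genes split into 5 bins of equal size, the bin lowest in GC (27.5% to 43.4%) had a median log2 fold change of 0.42, and the highest bin (54.8% to 73.7%) had -0.288. The bin of the shortest transcripts had a median of -0.201 and the longest 0.27. With the litter block and a correction for GC content and length, the correlations were -0.032 and 0.006. In T.mu epithelium, whose libraries carry the same pair of indexes, the correlations were -0.584 and 0.281.

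**Figure D4:**
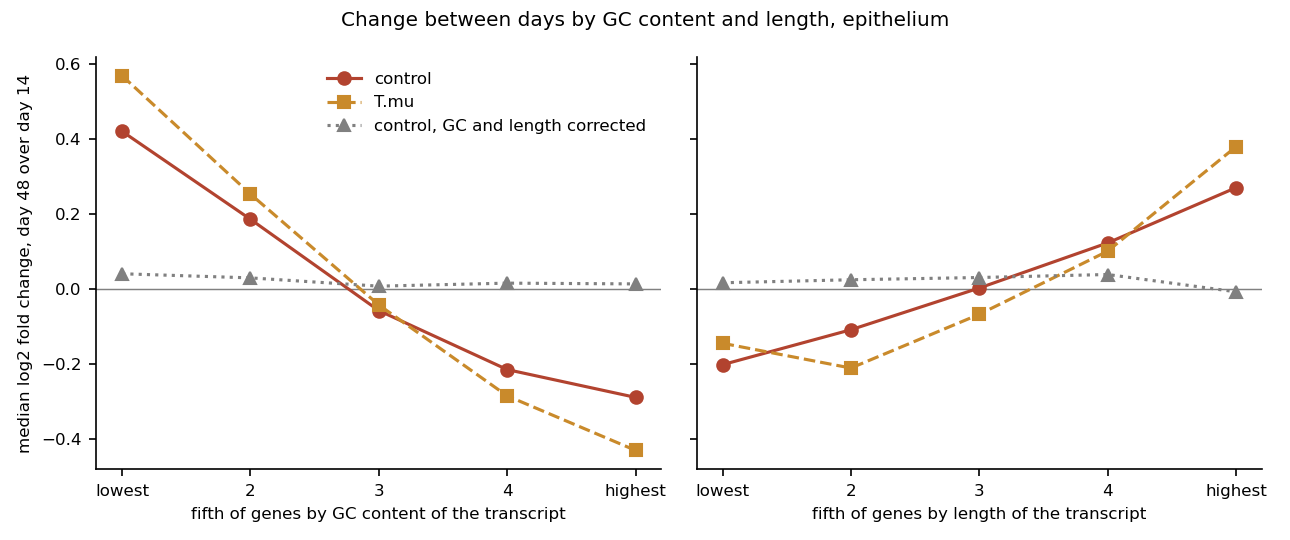
Median log2 fold change of day 48 over day 14 in 5 equal bins of the tested genes, by GC content (left) and by length of the longest transcript (right). Circles are control epithelium, squares T.mu epithelium, and triangles control epithelium after correction for GC content and length with the litter block. The control medians run between 0.42 and -0.288 over GC bins and lie within 0.041 of 0 after correction, which removes the trend by design.

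With the spread estimated from the 7 libraries alone, many more genes passed. In that fit 340 of 8509 genes (4.0%) differed, 170 higher (2.0%) and 170 lower (2.0%). The higher genes had a median GC content of 41.7% and a median length of 4012 bases, and the lower genes 53.4% and 1587 bases. Of the 340, 113 higher genes and 1 lower gene were in the lowest GC bin, and 1 higher gene and 65 lower genes in the highest. With GC content and length corrected, 103 genes passed (1.21%), 46 higher (0.541%) and 57 lower (0.67%), of which 64 were among the 340. The litter block left 22 genes, or 27 together with the correction. The 340 became 148 without day 14 replicate 1, 131, 224 and 96 without day 48 replicate 1, 3 and 4, and lay between 261 and 357 without any of the other 3.

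Of the 64 genes that passed in the 7-library fit with and without the correction, 5 are given as examples, none of which passed in the 20-library fit. Fabp2, the intestinal fatty acid binding protein, had 724.43, 895.36, 759.62 and 1013.93 CPM at day 48, against 396.07, 523.06 and 599.36 CPM at day 14. The days did not overlap (log2 0.60 corrected, adjusted p = 0.0118; adjusted p = 0.201 in the 20-library fit). Tmigd1, an adhesion molecule of the brush border, averaged 140.9 ± 40.4 CPM at day 48 and 71.59 ± 5.96 CPM at day 14 (log2 0.79 corrected, adjusted p = 0.0191). Spink1, a trypsin inhibitor gene, averaged 1490.0 ± 244 CPM at day 48 and 842.3 ± 40.1 CPM at day 14 (log2 0.81 corrected, adjusted p = 0.000214). Chgb, a granin of enteroendocrine granules, averaged 87.25 ± 8.05 CPM at day 48 and 50.81 ± 10.3 CPM at day 14 (log2 1.11 corrected, adjusted p = 0.00201). Calr, the endoplasmic reticulum chaperone calreticulin, averaged 156.4 ± 7.15 CPM at day 48 and 267.8 ± 34.2 CPM at day 14 (log2 -0.56 corrected, adjusted p = 0.0366). In the 20-library fit Tmigd1, Spink1, Chgb and Calr had adjusted p of 0.137, 0.423, 0.29 and 0.138.

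Of the genes that mark position along the colon, none passed in the 20-library fit. Hoxb13, a homeobox gene of the distal gut, had 102.16, 65.54, 115.39 and 78.65 CPM at day 48, against 161.81, 135.04 and 232.79 CPM at day 14. The days did not overlap (log2 -0.96 ± 0.26, edgeR adjusted p = 0.11, and 0.00252 in the 7-library fit). Ly6g, best known as a neutrophil surface gene, averaged 44.8 ± 13.8 CPM at day 48 and 92.57 ± 5.74 CPM at day 14 (log2 -1.05, adjusted p = 0.138, and 0.00633 in the 7-library fit). Car1, a carbonic anhydrase of colonocytes, averaged 10720.0 ± 2550.0 CPM at day 48 and 7430.0 ± 1350.0 CPM at day 14, with overlapping days (log2 0.53, adjusted p = 0.385, and 0.0255 in the 7-library fit). Of 18 position genes tested, 0 passed in the 20-library fit and 5 in the 7-library fit, Car1 and Fabp2 higher and Hoxb13, Ly6g and Cdx1 lower (2.0% of all genes each way). With the correction, Fabp2 was higher and Ly6g and Sprr2a3 were lower (0.541% and 0.67% of all genes). The stretch of colon that each sample came from is not given in the sources used here.

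Over the 40 gene lists, 38 had no member past the threshold in the 20-library fit, and Dusp1 was the one member called in the other 2 (immediate early and heat shock, and glucocorticoid response). Genes of the translation and energy machinery had the most members whose days did not overlap. Of 81 cytoplasmic ribosomal protein genes, 38 had day 48 below (46.9%, beside 7.44% of all genes) and 1 above, with a median log2 fold change of -0.39. Rpl19, a large subunit protein gene, averaged 198.1 ± 17 CPM at day 48 and 331.4 ± 18.4 CPM at day 14 (log2 -0.74, adjusted p = 0.138). In the 7-library fit 25 of the 81 were lower (30.9%, beside 2.0% of all genes) and 1, Rpl22l1, a paralogue of Rpl22, was higher, and with the correction 2 were lower and 1 higher (0.67% and 0.541% of all genes). Genes of this family have many processed pseudogenes, so their counts are uncertain.

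Of 73 nuclear-encoded genes of mitochondrial respiration, 30 had day 48 below (41.1%) and 3 above, with a median of -0.31. Cox4i1, a subunit of cytochrome c oxidase, averaged 2009.0 ± 235 CPM at day 48 and 3049.0 ± 291 CPM at day 14 (log2 -0.60, adjusted p = 0.221). The genes encoded by mitochondrial DNA ran the other way: all 9 tested had day 48 above without overlap (8.19% of all genes), with a median of 0.55. The complex I gene mt-Nd2 averaged 5012.0 ± 689 CPM at day 48 and 2995.0 ± 103 CPM at day 14 (log2 0.74, adjusted p = 0.295). The median GC contents of these 3 lists were 51.0%, 50.2% and 35.8%, beside 49.0% over all genes tested. Their median lengths were close to each other, at 1094, 1046 and 1144 bases, beside 3495 bases over all genes tested. After correction with the litter block the median log2 fold changes of the 3 lists were -0.20, -0.12 and 0.05. In T.mu epithelium the medians were 0.02, -0.04 and 0.78.

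**Figure D5:**
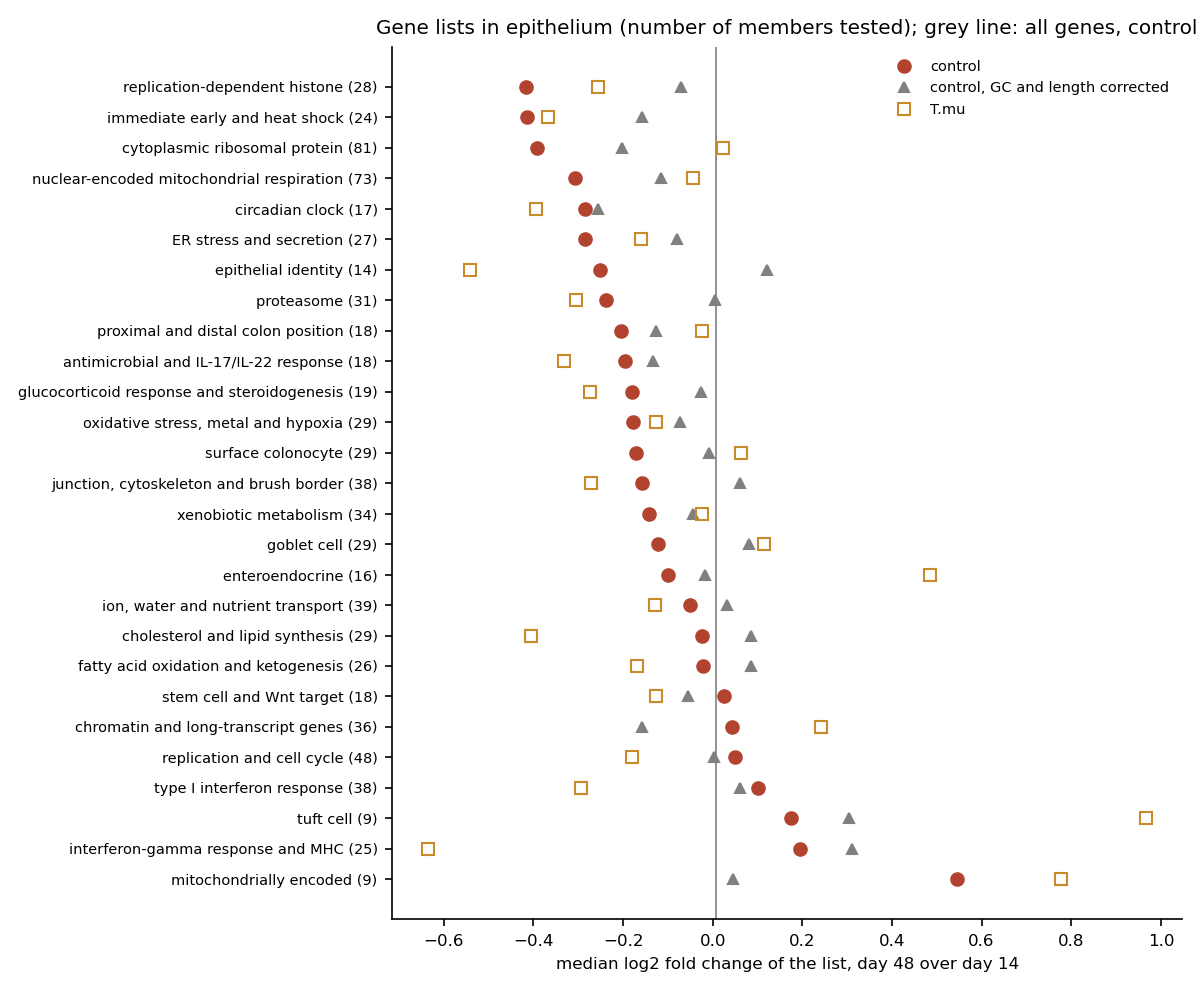
Median log2 fold change of day 48 over day 14 for the 27 gene lists with at least 9 members tested, with the number tested in brackets. Circles are control epithelium, triangles the same after correction for GC content and length with the litter block, and squares T.mu epithelium. The grey line is the median of all genes in controls (0.008). Control medians lie between -0.42 for replication-dependent histones and 0.55 for mitochondrially encoded genes.

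Lineage genes named whatever their result did not pass in the 20-library fit. Muc2, the gel-forming mucin of goblet cells, averaged 15580.0 ± 1740.0 CPM at day 48 and 23600.0 ± 6300.0 CPM at day 14 (log2 -0.60 ± 0.22, edgeR adjusted p = 0.284), with an adjusted p of 0.0117 in the 7-library fit and 0.316 with the correction. Tff3, the goblet cell trefoil factor, averaged 3823 CPM at day 48 and 3934 CPM at day 14 (adjusted p = 0.97). The stem cell receptor gene Lgr5 averaged 16.85 CPM at day 48 and 11.78 CPM at day 14 (adjusted p = 0.735), and the proliferation marker Mki67 58.33 and 51.27 CPM (adjusted p = 0.849). Krt20, a keratin of surface cells, averaged 212.2 CPM at day 48 and 227.1 CPM at day 14 (adjusted p = 0.906). Slc26a3, the chloride and bicarbonate exchanger of colonocytes, averaged 415.1 CPM at day 48 and 537 CPM at day 14, without overlap (adjusted p = 0.504). Its adjusted p was 0.159 in the 7-library fit and 0.0345 with the correction (log2 -0.495 corrected). The water channel gene Aqp8 averaged 239 CPM at day 48 and 331.4 CPM at day 14 (adjusted p = 0.407). Enteroendocrine Chga and Insl5, tuft cell Dclk1, the clock genes Per1 and Nr1d1, and the host-defence genes Reg3g, Retnlb, Irf7 and Cd74 had adjusted p from 0.407 to 0.96. Malat1, a nuclear RNA, averaged 875.2 CPM at day 48 and 748.1 CPM at day 14 (adjusted p = 0.832).

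Did mice with T.mu show the same change between days? Their 7 epithelial libraries share no library with the controls but share the days and the indexes. In the same fit, 135 of 10119 genes (1.33%) differed between day 48 and day 14 in T.mu epithelium, 83 higher (0.82%) and 52 lower (0.514%). The count was 39 with the litter block. It was 5, 54 and 21 without T.mu day 14 replicate 1, 2 and 3, and 429, 28 and 18 without T.mu day 48 replicate 1, 2 and 4. Of the 8505 genes tested in both the 7-library and the 20-library fit, 6066 had the same sign in both arms. Of the 37 control genes with adjusted p under 0.1, all 22 higher and 14 of the 15 lower had the same sign in T.mu epithelium, and 13 passed there. Ttn was at log2 1.82 (adjusted p = 0.00285), Tppp3 at -1.22 (0.0443) and Dusp1 at -0.87 (0.0771). Over all genes the fold changes of the arms had a Spearman correlation of 0.52, and 0.295 after the correction for GC content and length with the block.

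The exception was Atox1, at a log2 fold change of 0.32 in T.mu epithelium (edgeR adjusted p = 0.455) and -0.82 in controls. Hbb-bs averaged 8.13 CPM at day 48 and 7.73 CPM at day 14 in T.mu epithelium (log2 -0.08 in the fit, adjusted p = 0.955), against a log2 fold change of -2.43 in controls. The 5 red blood cell genes tested, Hbb-bs among them, had a median log2 fold change of -1.36 in T.mu epithelium and -1.75 in controls. Tested directly, no gene differed between the arms in its change between days (0 of 10119, 0.0%, by edgeR, DESeq2 and limma voom; 278, 348 and 412 at an unadjusted p under 0.05, of which 278 are 2.75%). A p above the threshold does not show that the arms changed alike.

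In total colon of the control mice, 6 of 11834 genes (0.0507%) differed between the days, 5 higher (0.0423%) and 1 lower (0.00845%). The change differed between epithelium and total colon for 3 genes (0.0254%), more positive in epithelium for Mgat4c (0.00845%) and more negative for Gm3054 and Mtch1 (0.0169%). Mgat4c had 416.35, 459.13, 309.86 and 456.36 CPM at day 48 in epithelium, against 180.59, 242.55 and 216.68 CPM at day 14, in the fit of all 40 libraries. In total colon it had 908 ± 173 CPM at day 48 and 1190.0 ± 48.4 CPM at day 14. The difference of the log2 fold changes was 1.33 (edgeR adjusted p = 0.0427), without a correction for GC content. It rests on single libraries, since no gene passed without day 48 replicate 1 or 4 or day 14 replicate 2 or 3 of the epithelium, or without any of 4 colon libraries.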

How the data were processed

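Gene counts were deposited by the authors as 1 table of whole-number counts per gene, from a high-throughput 3' DGE (digital gene expression) protocol, per the labels. STAR and Subread are named without versions, per the submitters' processing notes. The genome build behind the counts is not given in the sources used here, nor is whether duplicate molecules were collapsed. Gene IDs were matched to symbols for 45229 of 45792 mouse rows (98.8%). A single non-mouse row, 334 of 8893999 counts in the 7 libraries (0.00376%), was left out. Of values from 1 to 10, 62.96% were even at day 48 and 69.69% at day 14, so halved counts were tried as an alternative.

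Tests used edgeR 4.0.16 in R 4.3.3 (TMM scaling, robust quasi-likelihood, Benjamini-Hochberg adjustment, threshold 0.05) on 20 epithelial libraries in 6 groups, after a filter on low counts (minimum 10 per library, 15 in total, by group). Alternatives were DESeq2 1.42.0, limma 3.58.1 voom, other scalings, no filter, fewer libraries, and corrections for GC content and length (splines of 5 degrees of freedom). The edgeR script was tested on simulated data. Single values per library had exact permutation tests (scipy 1.17.1).

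Litters, as taken from the numbers in the titles, pair the libraries of the days. Deviations of same-litter libraries had correlations of 0.007, -0.079 and -0.004. No 2 replicates agreed within sampling noise (chi-square per degree of freedom 4.39 to 9.06).

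The genes named by rule were up to 15 in each direction past the threshold without overlap, up to 4 per list past it, a fixed panel of lineage genes and up to 5 per test of a difference. All other genes named in the text were chosen after their values had been seen. The comparison and the lists were chosen with earlier results of these data known. Some genes are not reported here.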

Additional observations from a re-analysis of the deposited data

Results flagged for a closer look

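In 5 of 81 values tested, 1 library of day 48 stood apart from the other 3, and chance flags about 1 in 20 groups. Reg3g, an antimicrobial lectin, was at 448.22 CPM in day 48 replicate 4. Cd74, the invariant chain that accompanies MHC class II, was at 7.08 CPM in day 48 replicate 2, which rests on 8 counts. Malat1 was at 1101.67 CPM in day 48 replicate 1. Day 48 replicate 2 had the fewest genes detected of its day, 19673, and the highest share of even values from 1 to 10, 65.3%.

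For 3 genes the log2 change between days differed between epithelium and total colon of control mice, each at an edgeR adjusted p of 0.0427. The difference, epithelium minus colon, was -1.61 for Gm3054, 1.33 for Mgat4c and -2.27 for Mtch1, a mitochondrial carrier homologue. Gm3054 averaged 92.8 ± 23.1 CPM at day 48 and 169 ± 37.7 CPM at day 14 in epithelium, and 213 ± 29.3 CPM at day 48 and 123 ± 20 CPM at day 14 in colon. Mtch1 averaged 63.6 ± 3.93 CPM at day 48 and 111 ± 16.1 CPM at day 14 in epithelium, and 26.5 ± 4.31 CPM at day 48 and 9.55 ± 1.53 CPM at day 14 in colon (SD, n = 4 and 3). Control colon replicates 1 and 2 of day 14 had 351445 and 220717 counts in all, so Mtch1 rests on few counts there. Total colon of day 14 carries another i5 index than epithelium of day 14.

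The non-mouse row had counts in all 7 control libraries, up to 58.1 CPM of all counts.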

How the results depend on the processing

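Beside the 3 genes of the 20-library fit, upper-quartile scaling gave 3 and RLE scaling 2. Others gave more: halved counts 5, GC and length correction without the block 5, ribosomal RNA genes left out 9, libraries under 400000 counts left out 11, no low-count filter 15, only control epithelium 34, DESeq2 91 and the 7 libraries alone 340. Limma voom gave 0 (1348 at an unadjusted p under 0.05). With the litter block there were 4, with block and GC and length correction 3, and with block and ribosomal RNA share 12. In the 7-library fit there were 103 with the correction, 22 with the block and 27 with both. Leaving out 1 library gave 0 to 3 genes, and 96 to 357 in the 7-library fit (148, 357 and 261 without day 14 replicate 1, 2 and 3, and 131, 281, 224 and 96 without day 48 replicate 1, 2, 3 and 4).

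The 135 genes of T.mu epithelium became 39 with the block, 42 with block and correction, 69 with the correction, 299 with halved counts, 316 without shallow libraries and 324 by DESeq2, and 5 to 429 without 1 library. The 3 genes that differed between epithelium and colon became 1 without shallow libraries, 7 by upper-quartile and 10 by RLE scaling, 11 with halved counts, 27 without the filter and 175 by DESeq2, and 0 to 24 without 1 library. The cause was not tested. Of 1940 combinations of 66 named genes and settings, none changed the direction of a call, 30 lost it and 389 gained it. Only Ttn, Dusp1 and Tppp3 had a call to lose, and all 30 losses were theirs, so 1940 is not the base of that loss. Depth limits low genes: 3 counts over the day 14 group are 0.983 CPM.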
